A study of Danio rerio with 12 samples.

Results

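The genes examined were 9 genes for secreted glycoproteins and crosslinking enzymes of the extracellular matrix. They were chosen by name, with earlier results of these data known. The 9 are the fibronectins fn1a and fn1b, the periostins postna and postnb, sparc, tenascin C (tnc), osteopontin (spp1), lysyl oxidase (lox) and loxl2b. They are 9 of the 32520 genes in the count tables, and all 9 were found. RNA was sequenced from 2 muscles of zebrafish of strain AB aged 20 months: trunk muscle and extraocular muscle (EOM), the set of small muscles attached to the eyeball. The 4 groups of 3 libraries were EOM of desma-/-;desmb-/- double mutants, EOM of wild type (WT), trunk muscle of the double mutants and trunk muscle of WT. The mutants carry mutations in both genes for desmin, the intermediate filament protein that links myofibrils to one another at the Z-disc. The labels give the WT fish as members of the AB line used to generate the mutants. A knock-down is named in the series design, and the genotype of the sample labels was used. The titles number the libraries as groups 1 to 3 and do not say whether each held tissue of a single fish or of several, so p-values measure the spread between these libraries.

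Skeletal muscle fibres lie in a connective tissue that is laid down mainly by fibroblasts and that thickens in muscle disease. Fibronectin is an adhesive glycoprotein that forms fibrils through integrin receptors and serves as a scaffold for collagen. Periostin, SPARC, tenascin C and osteopontin are matricellular proteins, which sit in the matrix and alter how cells and collagen interact. Lysyl oxidase and its relatives oxidise lysine residues of collagen and elastin, which lets the fibres crosslink. In mammals these genes are raised during fibrosis and muscle regeneration, and the comparisons below describe them in that setting.

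Both copies of a duplicated zebrafish gene carry one human symbol in the table that pairs gene IDs with symbols, for example FN1 for both fibronectin IDs. The letters a and b were therefore assigned by which genes flank each ID in the count tables and in RefSeq's gene table. fn1a is ENSDARG00000019815.11, fn1b ENSDARG00000006526.12, postna ENSDARG00000043806.7, postnb ENSDARG00000104267.3 and loxl2b ENSDARG00000044074.7. The ID taken as tnc, ENSDARG00000021948.11, has the neighbours of the gene that RefSeq calls tncb, with tnc as a synonym. The ID taken as lox, ENSDARG00000003259.11, is the only one with that symbol, and its neighbours are those of RefSeq's loxa. The IDs of sparc (ENSDARG00000019353.9) and spp1 (ENSDARG00000044276.9) were matched by symbol.

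Libraries held 46.1 to 74.1 M sense reads in genes (M, mega), and the 9 genes had between 13 and 69597 reads in a library. Levels are given as CPM, counts per M reads on library sizes scaled by the TMM method (trimmed mean of M-values), with mean ± SD of 3 libraries. CPM does not correct for transcript length, so levels are compared between groups and not between genes. The targeted gene desma averaged 35 ± 8.28 CPM in mutant EOM, against 636 ± 57.3 CPM in WT EOM (SD, n = 3 each). Mutant trunk averaged 32.5 ± 15.9 CPM, against 619 ± 59.7 CPM in WT trunk. The other desmin gene, desmb, had between 3 and 14 reads in a library. It averaged 0.169 CPM in mutant EOM and 0.085 CPM in WT EOM (log2 fold change 0.98 ± 0.45, SE; edgeR, adjusted p = 0.299). In trunk it averaged 0.103 CPM in mutants and 0.0812 CPM in WT and was not tested. At these low counts, with no fall in mutants, it gave no check of the labels. All 8 matched markers of skeletal muscle fibres had reads in each group, which does not tell EOM from trunk. WT trunk replicate 1 stood apart from the other trunk libraries in photoreceptor markers, with the values given below. In bulk tissue, fewer cells of a type and less RNA per cell cannot be told apart.

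**Figure D1:**
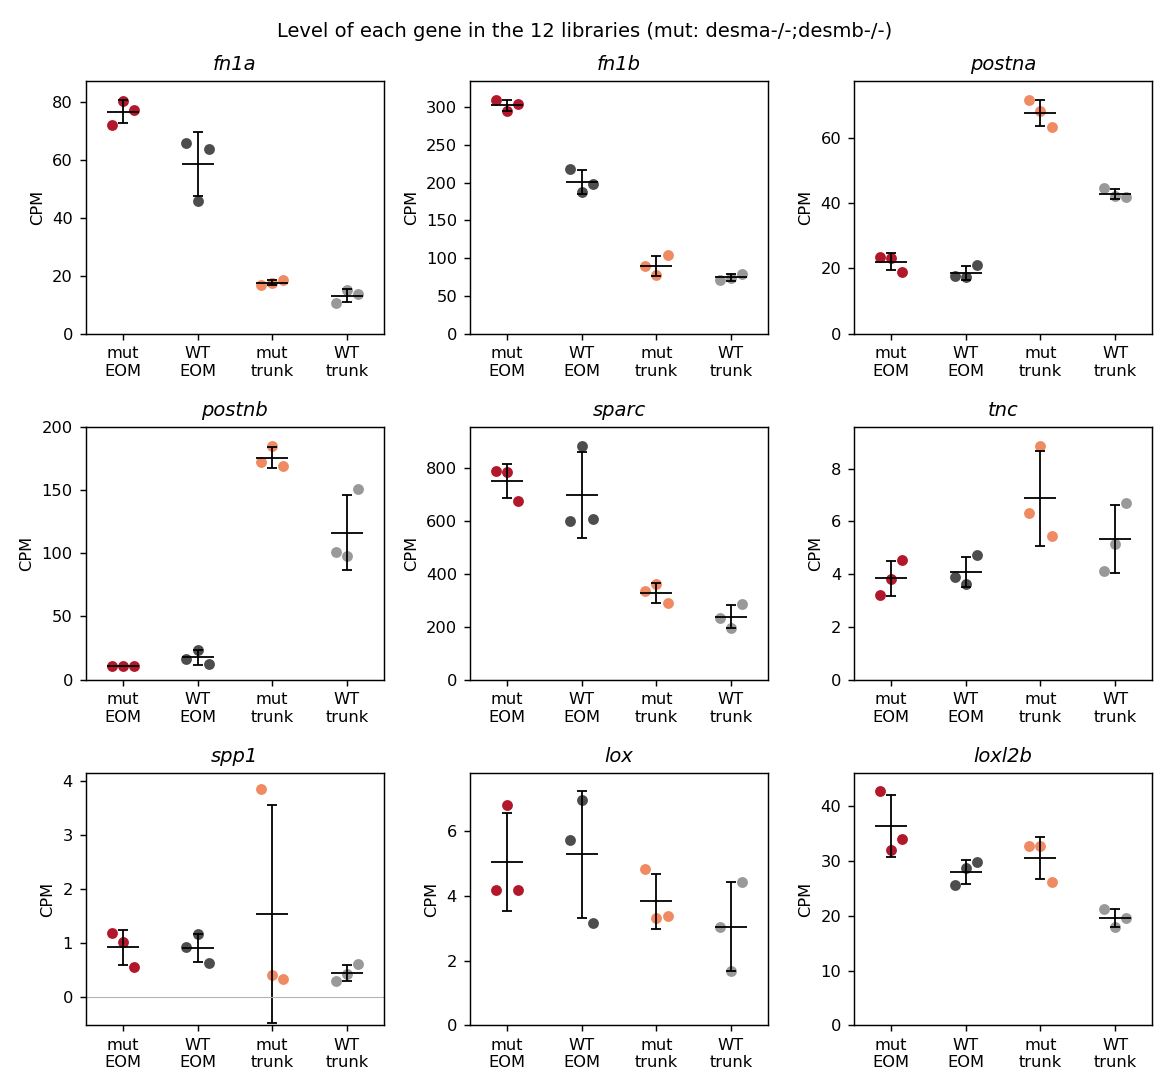
CPM of each of the 9 genes (y axes, linear) in the 3 libraries of each group (points), with mean and SD (bars); mut stands for desma-/-;desmb-/-. The fn1b points of mutant EOM lie between 295 and 309 CPM, above those of WT EOM, and the postnb points of mutant EOM, at 10.5 to 10.8 CPM, lie below those of WT EOM.

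The first question was whether the matrix genes differed between mutants and WT within EOM. Of the 9 genes, fn1b alone passed the test, rising 1.51-fold in mutants. In the same comparison 3.56% of all 18980 genes tested were called, 2.15% as higher and 1.4% as lower (edgeR quasi-likelihood test, Benjamini-Hochberg adjusted p-value under 0.05). Differences were positive for 6 of the 9 genes and negative for 3, and the median log2 fold change of the 9 was 0.11, against −0.02 for all genes tested. For 4 of the 9 the 3 mutant and 3 WT libraries did not overlap, 3 of them higher and 1 lower in mutants; 24.9% of all genes tested showed no overlap.

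The fibronectin copy fn1b was at 309, 295 and 304 CPM in mutant EOM, against 218, 188 and 198 CPM in WT EOM. All 3 mutant libraries were above all 3 WT libraries, and the gap between the groups was wider than the range of either. The log2 fold change was 0.59 ± 0.11 (SE; edgeR, adjusted p = 0.0322). With any 1 library left out the log2 fold change was 0.54 to 0.65. Over those 6 fits the edgeR adjusted p was 0.041 to 0.139, under 0.05 only without WT replicate 2, so the call was lost without any 1 of the other 5 libraries. Fewer genes of any kind were called in EOM with a library left out, as given at the end.

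The other copy, fn1a, was at 72.3, 80.4 and 77.5 CPM in mutant EOM, against 66.1, 46 and 64 CPM in WT EOM. The groups did not overlap, and WT replicate 2 was the lowest of the 6 libraries. The log2 fold change of 0.39 ± 0.15 did not pass the threshold (edgeR, adjusted p = 0.222). The ratio of fn1b to fn1a reads per library averaged 3.95 ± 0.305 in mutant EOM and 3.49 ± 0.518 in WT EOM (SD, n = 3 each; exact permutation test, two-sided, p = 0.3). With 3 libraries against 3 that test cannot give a p below 0.1.

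The log2 fold changes of the periostins in EOM had opposite signs, and neither passed the threshold. postnb was at 10.5, 10.8 and 10.6 CPM in mutant EOM, against 16.1, 23.7 and 12.7 CPM in WT EOM. The mutant libraries were nearly equal and all below the WT libraries, among which replicate 2 stood highest. Its log2 fold change of −0.72 ± 0.21 did not pass the threshold (edgeR, adjusted p = 0.103), and it passed with DESeq2 (adjusted p = 0.0265) and in edgeR without WT replicate 3 (−0.91, adjusted p = 0.0328). Over all alternatives the adjusted p ran from 0.0265 to 0.282.

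Its copy postna was at 23.6, 23.3 and 19 CPM in mutant EOM, against 17.6, 17.3 and 20.9 CPM in WT EOM. Here the groups overlapped, and the log2 fold change was 0.24 ± 0.13 (edgeR, adjusted p = 0.371). The ratio of postnb to postna was 0.442, 0.464 and 0.557 in mutant EOM, against 0.918, 1.37 and 0.609 in WT EOM. The ratios did not overlap, and the exact permutation test gave p = 0.1, the smallest it can give (adjusted over 4 ratio tests, 0.4).

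The crosslinking gene loxl2b was at 42.7, 32 and 34 CPM in mutant EOM, against 25.6, 28.8 and 29.8 CPM in WT EOM. The groups did not overlap, though mutant replicate 1 carried much of the difference, and the log2 fold change of 0.37 ± 0.14 did not pass (edgeR, adjusted p = 0.185). The lysyl oxidase gene lox was at 4.18, 6.8 and 4.17 CPM in mutant EOM, against 5.74, 6.97 and 3.15 CPM in WT EOM. The libraries of both groups were intermixed (log2 fold change −0.06 ± 0.31; edgeR, adjusted p = 0.939).

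The remaining matricellular genes overlapped between genotypes in EOM. sparc, which encodes a collagen-binding glycoprotein, was at 789, 784 and 676 CPM in mutant EOM, against 598, 885 and 607 CPM in WT EOM. WT replicate 2 was above every mutant library, and the log2 fold change was 0.11 ± 0.17 (edgeR, adjusted p = 0.786). tnc averaged 3.84 ± 0.668 CPM in mutant EOM and 4.08 ± 0.578 CPM in WT EOM, and spp1 averaged 0.914 ± 0.324 CPM in mutant EOM and 0.903 ± 0.266 CPM in WT EOM (SD, n = 3 each). Their log2 fold changes were −0.08 ± 0.19 and 0.02 ± 0.36 (edgeR, adjusted p = 0.864 and 0.987). The sign of lox, tnc and spp1 in EOM turned when single libraries were left out, and that of lox and tnc also with unscaled library totals.

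In trunk muscle, postna and loxl2b rose in mutants, 1.6-fold and 1.58-fold, and no gene of the 9 fell. Of all 17342 genes tested in trunk, 8.4% were called, 4.76% as higher and 3.63% as lower (edgeR). All 9 differences were positive, with a median log2 fold change of 0.48 against −0.01 for all genes tested. For 5 of the 9 all mutant libraries were above all WT libraries, as were those of 15% of all genes tested. In either direction 30.3% of all genes showed no overlap.

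postna was at 71.4, 68.1 and 63.4 CPM in mutant trunk, against 44.5, 42.3 and 41.8 CPM in WT trunk. The spread within each group was small beside the gap between them. The log2 fold change was 0.68 ± 0.12 (edgeR, adjusted p = 0.00929), and it stayed under 0.05 without any other single library than mutant replicate 1 (0.63, adjusted p = 0.0553).

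postnb was at 173, 185 and 169 CPM in mutant trunk, against 100.7, 97.5 and 150.6 CPM in WT trunk. WT replicate 3 lay between the other WT libraries and the mutants. Its log2 fold change of 0.61 ± 0.18 did not pass (edgeR, adjusted p = 0.0668), but passed with DESeq2 (adjusted p = 0.0213), with no filter on low counts (0.0294) and without WT replicate 3 (0.86, adjusted p = 0.00306). Over all alternatives the adjusted p ran from 0.00306 to 0.217. The ratio of postnb to postna averaged 2.6 ± 0.162 in mutant trunk and 2.73 ± 0.762 in WT trunk (SD, n = 3 each; exact permutation test, p = 1).

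loxl2b was at 32.7, 32.7 and 26.1 CPM in mutant trunk, against 21.2, 18 and 19.6 CPM in WT trunk. All mutant libraries were higher, by 0.66 ± 0.14 in log2 units (edgeR, adjusted p = 0.0184). Leaving out 1 library gave log2 fold changes of 0.59 to 0.76. The edgeR adjusted p was then 0.0523 without WT replicate 1, 0.0925 without mutant replicate 1 and 0.088 without mutant replicate 2, and under 0.05 without any of the others. lox was at 4.82, 3.31 and 3.37 CPM in mutant trunk, against 3.04, 1.68 and 4.42 CPM in WT trunk. Its groups overlapped, with WT replicate 3 above the lower mutant libraries (log2 fold change 0.34 ± 0.33; edgeR, adjusted p = 0.578).

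The fibronectins did not pass in trunk. fn1a was at 16.8, 17.6 and 18.5 CPM in mutant trunk, against 10.8, 15 and 13.8 CPM in WT trunk. The groups did not overlap (log2 fold change 0.44 ± 0.15; edgeR, adjusted p = 0.0903). fn1b was at 89.5, 77.3 and 103.8 CPM in mutant trunk, against 70.9, 73.3 and 79.7 CPM in WT trunk. Here mutant replicate 2 was below WT replicate 3, and the log2 fold change was 0.29 ± 0.15 (edgeR, adjusted p = 0.246).

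sparc was at 333, 362 and 288 CPM in mutant trunk, against 234, 196 and 285 CPM in WT trunk. The lowest mutant library was just above the highest WT library, replicate 3. The log2 fold change of 0.48 ± 0.17 did not pass (edgeR, adjusted p = 0.115), but passed without WT replicate 3 (0.64, adjusted p = 0.0238). In the other 5 of 6 fits with 1 library left out it did not pass, with edgeR adjusted p up to 0.3. tnc averaged 6.87 ± 1.79 CPM in mutant trunk and 5.33 ± 1.3 CPM in WT trunk (SD, n = 3 each), with overlap (log2 fold change 0.38 ± 0.23; edgeR, adjusted p = 0.339).

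For spp1, a gene expressed by macrophages and bone cells in mammals, a single library set the trunk value. It was at 3.84, 0.399 and 0.335 CPM in mutant trunk, against 0.293, 0.427 and 0.603 CPM in WT trunk. Apart from mutant replicate 1 the libraries were intermixed. Its log2 fold change was 1.81 ± 1.07 (edgeR, adjusted p = 0.363), and −0.25 without that library (adjusted p = 0.859). Mutant trunk replicate 1 also held the highest summed level of the leukocyte markers given below among the trunk libraries, and its part in the spp1 value was not tested.

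**Figure D2:**
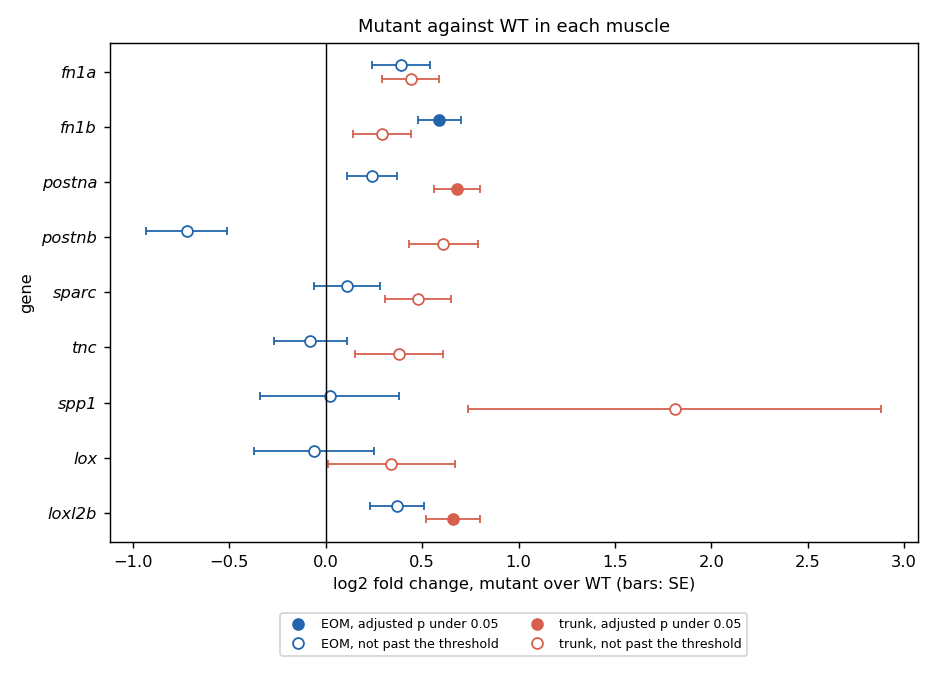
Log2 fold change of mutant over WT (x axis; points, with SE as bars) for each of the 9 genes in EOM and in trunk; filled points passed an adjusted p of 0.05. The trunk values are all positive, from 0.29 for fn1b to 1.81 for spp1, while postnb in EOM is at −0.72.

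Whether the mutation acted differently in the muscles was tested as the difference between the log2 fold changes, EOM minus trunk, in a fit of all 12 libraries. None of the 9 genes passed the threshold (edgeR; 0.0914% of 19687 genes did, 0.0305% as higher and 0.061% as lower). An unadjusted p under 0.05 was found for 2 of the 9, postna and postnb, and for 9.8% of all genes tested (1930 genes). DESeq2 called 1 of the 9, postnb, and called more genes of any kind: 192 of 27799 genes with reads, against 18 of 19687 in edgeR. The difference was negative for 8 of the 9 genes, with a median of −0.39 against −0.01 for all genes tested. The sign of fn1a turned with unscaled totals (0.08). With 1 library left out the difference ran from −0.18 to 0.09 for fn1a and from −2.24 to 0.27 for spp1, so both signs also turned there.

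For postnb the difference was −1.32 ± 0.29 (edgeR, unadjusted p = 0.000494, adjusted p = 0.137; DESeq2 adjusted p = 0.00763). Adjusted p-values over its edgeR and DESeq2 alternatives ran from 0.00763 to 0.367. In EOM all 3 mutant libraries were lower than all 3 WT libraries, and in trunk all 3 were higher. Of all genes tested, 11.6% were lower without overlap in EOM and 15% higher in trunk, and the share with both was not computed. For postna the difference was −0.42 ± 0.17 (edgeR, unadjusted p = 0.0308, adjusted p = 0.473). For fn1b, the only gene with a positive difference, it was 0.31 ± 0.18 (edgeR, adjusted p = 0.593), so the call of fn1b in EOM and not in trunk is not shown to be a difference between the muscles. The same holds for loxl2b, called in trunk and not in EOM (difference −0.27 ± 0.20; edgeR, adjusted p = 0.678).

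The study's fish also allow the muscles to be compared within a genotype, as EOM over trunk. In mutants, fn1a, fn1b and sparc were higher in EOM and postna, postnb and tnc lower, 6 of the 9. Of 18698 genes 53.1% were called, 27.4% as higher and 25.7% as lower, and 61.5% did not overlap, as the same 6 of the 9 did not (31.7% of all genes higher, 29.8% lower). In WT, fn1a, fn1b, sparc and loxl2b were higher in EOM than in trunk, and postna and postnb were lower, again 6 of the 9. Of the 18430 genes tested 48.8% were called, 25.6% as higher and 23.2% as lower. The libraries did not overlap for 7 of the 9 genes, 5 higher and 2 lower, and for 60.1% of all genes, 31% higher and 29.1% lower. These comparisons share their libraries with those of mutant against WT, so the values stand side by side and support nothing in each other.

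The fibronectins had their highest levels in EOM. For fn1a the log2 fold change of EOM over trunk was 2.14 ± 0.10 in mutants (edgeR, adjusted p = 4.41e-08) and 2.19 ± 0.20 in WT (edgeR, adjusted p = 5.12e-05). For fn1b the log2 fold change was 1.76 ± 0.13 in mutants (edgeR, adjusted p = 1.02e-06) and 1.47 ± 0.15 in WT (edgeR, adjusted p = 9.06e-05). Every EOM library of either genotype was above every trunk library for both genes.

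The periostins had the opposite order. postnb was lower in EOM by a log2 fold change of −4.04 ± 0.11 in mutants (edgeR, adjusted p = 1e-09) and −2.70 ± 0.28 in WT (edgeR, adjusted p = 0.000106). Its levels fell into 4 separate groups, from mutant trunk at 169 to 185 CPM down through WT trunk and WT EOM to mutant EOM at 10.5 to 10.8 CPM. For postna the log2 fold change was −1.61 ± 0.12 in mutants (edgeR, adjusted p = 9.58e-07) and −1.17 ± 0.14 in WT (edgeR, adjusted p = 0.000194). All trunk libraries were above all EOM libraries for both periostins.

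sparc was higher in EOM, at 1.20 ± 0.13 in log2 units in mutants (edgeR, adjusted p = 1.95e-05) and 1.58 ± 0.22 in WT (edgeR, adjusted p = 0.000499). For loxl2b it was 0.26 ± 0.14 in mutants, which did not pass (edgeR, adjusted p = 0.134), and 0.55 ± 0.14 in WT (edgeR, adjusted p = 0.00925; 0.0514 without WT trunk replicate 2). Its groups ran from mutant EOM through mutant trunk and WT EOM to WT trunk, and in that order only WT trunk was apart from its neighbour. tnc was lower in EOM in mutants (log2 fold change −0.83 ± 0.20; edgeR, adjusted p = 0.00529), and in WT the log2 fold change was −0.35 ± 0.23 (edgeR, adjusted p = 0.226). lox had log2 fold changes of 0.41 ± 0.23 in mutants and 0.82 ± 0.39 in WT (edgeR, adjusted p = 0.16 and 0.109). spp1 had −0.72 ± 0.97 in mutants and 1.07 ± 0.40 in WT (edgeR, adjusted p = 0.572 and 0.0518). In mutants spp1 passed without trunk replicate 1 (1.32; edgeR, adjusted p = 0.0261). In WT both passed without EOM replicate 3 (edgeR, adjusted p = 0.0391 for lox and 0.0332 for spp1) and without trunk replicate 3 (edgeR, 0.0435 for lox and 0.0411 for spp1). Neither passed in the other 4 of 6 such fits in WT, with edgeR adjusted p up to 0.309 for lox and 0.176 for spp1. In mutants spp1 did not pass in the other 5 of 6 (edgeR, adjusted p up to 0.796). The levels of lox overlapped between all neighbouring groups, as did those of tnc.

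These tissue differences depend on how the libraries were scaled. The share of reads held by the top 20 genes was 30.3% to 33.9% in EOM libraries, against 44.5% to 48.3% in trunk libraries. With unscaled library totals the median log2 fold change of all genes was 0.79 in mutants, against 0.04 with TMM factors, and 0.66 in WT, against 0.06. The fibronectins, sparc and periostins kept their direction and their calls under that scaling. The tnc call in mutants was lost (log2 fold change −0.05; edgeR, adjusted p = 0.817), and the sign of tnc in WT turned (0.24; edgeR, adjusted p = 0.449). With those totals loxl2b and lox passed in mutants, and lox and spp1 in WT.

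**Figure D3:**
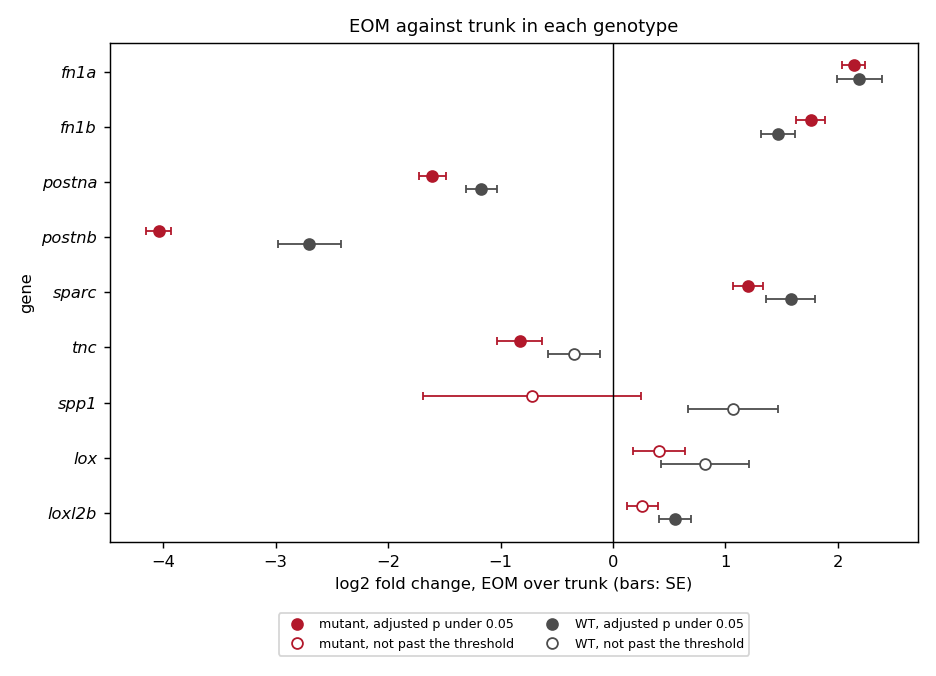
Log2 fold change of EOM over trunk (x axis; points, with SE as bars) for each of the 9 genes in mutants and in WT, on TMM-scaled libraries; filled points passed an adjusted p of 0.05. The fibronectins lie between 1.47 and 2.19, and postnb lies at −4.04 in mutants and −2.70 in WT; tnc in WT lies left of 0 here and turns to 0.24 with unscaled library totals.

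Genes that act beside these 9 were examined in 5 lists. Of all genes tested, 2.15% were called as higher and 1.4% as lower in mutant EOM (edgeR). In mutant trunk 4.76% were called as higher and 3.63% as lower. The counts called in these lists and in the marker lists below are read against those shares. The lysyl oxidase family, which includes lox and loxl2b, had 8 of 9 members tested in each mutant comparison. In EOM 1 was called, as higher, and the median log2 fold change was 0.31. In trunk 2 were called, both as higher, and the median was 0.52. loxl1, an elastin-crosslinking relative of lox, rose in both muscles: it was at 49.6, 54.2 and 55.4 CPM in mutant EOM, against 35.2, 35.1 and 31.5 CPM in WT EOM (log2 fold change 0.65 ± 0.11; edgeR, adjusted p = 0.0213). In trunk loxl1 was at 18.6, 17 and 18.3 CPM in mutants, against 13.9, 12.3 and 13.3 CPM in WT (0.47 ± 0.13; edgeR, adjusted p = 0.0463). With 1 library left out the edgeR adjusted p of loxl1 was 0.0207 to 0.106 in EOM, under 0.05 only without WT replicate 2, and 0.0315 to 0.17 in trunk, under 0.05 only without WT replicate 3. The other copy of loxl2b, loxl2a, did not pass in either muscle (log2 fold change 0.41 ± 0.26 in EOM and 0.57 ± 0.21 in trunk; edgeR, adjusted p = 0.447 and 0.126).

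The fibrillar collagens, the main substrate of these enzymes, had a median log2 fold change of 0.39 in EOM over 10 genes and 0.63 in trunk over 9. In EOM 1 was called, col1a1a, a chain of type I collagen, which averaged 143 ± 27.3 CPM in mutants and 88.1 ± 6.4 CPM in WT (SD, n = 3 each; log2 fold change 0.70 ± 0.15; edgeR, adjusted p = 0.0485). In trunk 1 was called, col5a1, a chain of type V collagen, which averaged 78.6 ± 4.25 CPM in mutants and 51.5 ± 8.35 CPM in WT (SD, n = 3 each; 0.63 ± 0.15; edgeR, adjusted p = 0.031). With 1 library left out the edgeR adjusted p of col1a1a was 0.0332 to 0.191, under 0.05 only without WT replicate 2 or mutant replicate 3. That of col5a1 was 0.00386 to 0.13, under 0.05 only without WT replicate 3. In that fit 6 of the 9 collagens tested in trunk were called, all as higher. In every other trunk fit with 1 library left out none was. The number of all genes called also moved widely between these fits, as given at the end. WT replicate 3 was the highest WT trunk library for type I collagen, with col1a2 at 64.5, 67.4 and 132.8 CPM in WT trunk.

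Of the integrin subunits that bind fibronectin and other members of the group, 9 of 10 matched genes were tested and none was called in either muscle (edgeR; smallest adjusted p 0.133 in EOM and 0.154 in trunk). Their median log2 fold change was 0.10 in EOM and −0.18 in trunk. itga5, which pairs with a beta subunit as the classical fibronectin receptor, averaged 49.6 ± 11.4 CPM in mutant EOM, against 54.6 ± 7.77 CPM in WT EOM (SD, n = 3 each). In trunk itga5 averaged 30.8 ± 4.06 CPM in mutants, against 37.6 ± 0.64 CPM in WT.

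Among 14 genes of TGF-beta and CCN signalling, which induces many matrix genes, none was called in EOM (edgeR; smallest adjusted p 0.121) and 2 were called in trunk, both as higher. Their medians were 0.11 in EOM and −0.01 in trunk. tgfbi, a secreted relative of periostin, was at 54.3, 62.1 and 46.4 CPM in mutant trunk, against 30.6, 30.1 and 34.1 CPM in WT trunk (log2 fold change 0.80 ± 0.14; edgeR, adjusted p = 0.00919, and 0.0517 without mutant replicate 2). In EOM tgfbi averaged 72.6 ± 8.46 CPM in mutants and 77.6 ± 6.59 CPM in WT (SD, n = 3 each). The receptor gene tgfbr2b averaged 75.6 ± 8.7 CPM in mutant trunk and 51.3 ± 8.84 CPM in WT trunk (SD, n = 3 each; 0.58 ± 0.16; edgeR, adjusted p = 0.0446), and without any single library its adjusted p was 0.0516 to 0.165. The ligand tgfb1a, like itga5 named for its role after its values were seen, had log2 fold changes of 0.16 ± 0.11 in EOM and −0.03 ± 0.15 in trunk (edgeR, adjusted p = 0.483 and 0.917).

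Of 15 genes for procollagen processing and assembly, none was called in EOM (edgeR; smallest adjusted p 0.074) and 1 in trunk, with medians of −0.07 and 0.26. bmp1b, which encodes a protease of the family that trims procollagen and activates lysyl oxidase in mammals, fell in trunk. It was at 0.695, 1.46 and 0.69 CPM in mutant trunk, against 2.5, 2.21 and 4.5 CPM in WT trunk (log2 fold change −1.67 ± 0.38; edgeR, adjusted p = 0.0284). With 1 library left out the edgeR adjusted p was 0.0234 to 0.116, at or above 0.05 without WT replicate 1, mutant replicate 1 or mutant replicate 3. In EOM bmp1b averaged 0.404 ± 0.154 CPM in mutants and 1.15 ± 0.406 CPM in WT (SD, n = 3 each; −1.50 ± 0.38; edgeR, adjusted p = 0.074).

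**Figure D4:**
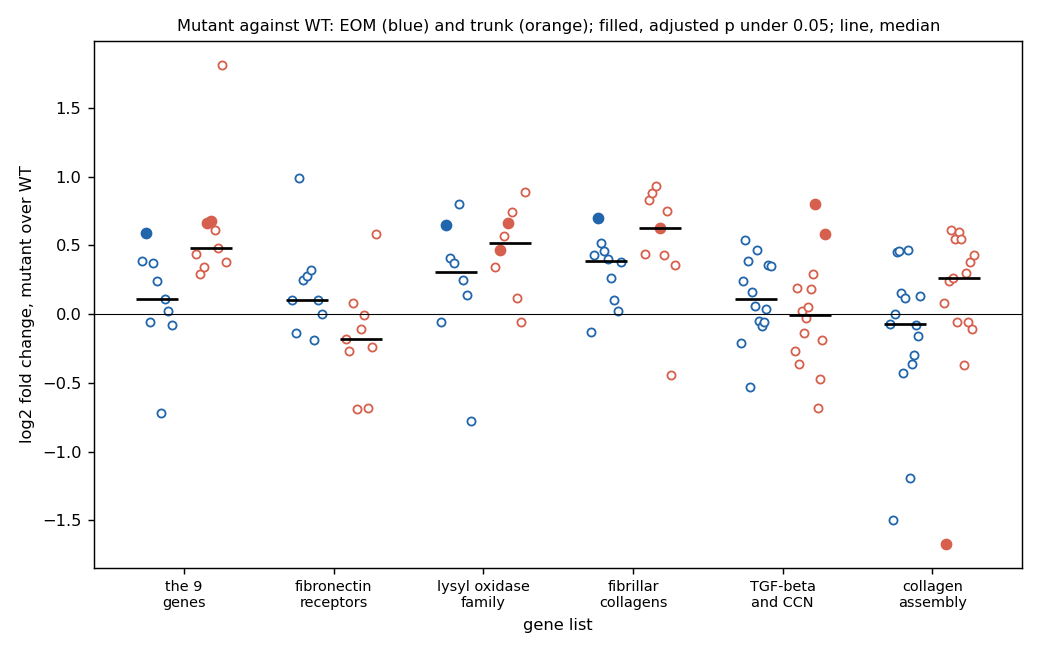
Log2 fold change of mutant over WT (y axis) of every tested gene in the 9-gene group and in the 5 related lists (x axis), in EOM (blue) and trunk (orange); filled points passed an adjusted p of 0.05 and black lines are medians. The trunk medians of the 9 genes, the lysyl oxidase family and the fibrillar collagens lie at 0.48, 0.52 and 0.63, and lox and loxl2b appear in both the first and the third list.

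Between the muscles many genes of any kind were called (edgeR), 53.1% of all genes in mutants and 48.8% in WT. As higher in EOM 27.4% were called in mutants and 25.6% in WT, and as lower 25.7% and 23.2%. The list counts in each direction are read against the share of that direction. In mutants 8 of 10 fibrillar collagens were higher in EOM and 1 lower, 5 of 8 lysyl oxidase genes higher and 1 lower, and 5 of 9 integrins higher and 1 lower. In the TGF-beta and CCN list 8 of 14 were higher and 5 lower in mutants, and in the procollagen list 9 of 15 higher and 3 lower. In WT 7 of 10 fibrillar collagens were called, 6 as higher in EOM, among them col5a2b (log2 fold change 2.48) and col1a2 (1.21), and 1, col11a1b, as lower (−1.56). In the lysyl oxidase family 5 of 8 were higher in WT EOM, loxl5b (3.98), loxl3b (1.55), loxl1 (1.40), loxl4 (0.88) and loxl2b, and 1, loxl2a, was lower (−1.37). Among the 9 integrins tested itgb6 (2.87) and itga5 (0.58) were higher and itga4 (−1.37) lower. In the TGF-beta and CCN list 8 of 14 were higher, among them the ligand tgfb1a (1.64), ccn2b (1.58) and tgfbi (1.33), and 5 lower, among them the receptors tgfbr1a (−1.93), tgfbr1b (−1.83) and tgfbr2a (−1.33). In the procollagen list 9 of 15 were higher, among them pcolcea (3.27), pcolce2b (1.35) and fkbp10b (1.34), and 3 lower, among them bmp1b (−1.39).

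Markers of other cell types moved with the genotypes. The summed level of 10 macrophage and leukocyte markers was 948 to 1185 CPM in mutant EOM and 664 to 684 CPM in WT EOM, and 415 to 704 CPM in mutant trunk and 240 to 251 CPM in WT trunk. Of these 10 markers, 7 were called as higher in mutant EOM, with the largest log2 fold changes for spi1b (0.91), marco (0.81) and cd74b (0.80). In mutant trunk 8 were called as higher, led by cd74b (1.52), cd74a (1.28) and spi1b (1.19). Of all genes tested, 2.15% were called as higher in mutant EOM and 4.76% in mutant trunk. The EOM count was 0 when mutant replicate 1, mutant replicate 2 or WT replicate 1 was left out, and 4 or 5 when mutant replicate 3 or WT replicate 3 was. The trunk count was 7 or 8 with any 1 library left out. The summed level of 10 fibroblast markers was 823 to 1001 CPM in mutant EOM and 678 to 737 CPM in WT EOM, and 356 to 407 CPM in mutant trunk and 223 to 286 CPM in WT trunk. The median log2 fold change of the 9 fibroblast markers tested was 0.37 in EOM and 0.11 in trunk. In trunk 2 of the 9 were called, dcn (0.77) and twist1b (1.04), and in EOM none was (edgeR; smallest adjusted p 0.0867). With 1 library left out dcn kept its call in all 6 fits and twist1b lost it in 3 of 6. Most of the trunk difference in the sum came from dcn, at 149 ± 13.4 CPM in mutants and 88.6 ± 4.09 CPM in WT, and col1a2, at 167 ± 14.8 CPM in mutants and 88.2 ± 38.6 CPM in WT (SD, n = 3 each). By contrast pdgfra averaged 20.6 ± 1.65 CPM in mutant trunk and 20.3 ± 3.98 CPM in WT trunk, and pdgfrb 38.7 ± 1.13 CPM in mutant trunk and 37.4 ± 2.89 CPM in WT trunk. One of the fibroblast markers, col1a2, is also in the collagen list. The part of these cells in the results for the 9 genes was not tested.

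Tenocyte markers, 7 genes, summed to 4.98 to 6.45 CPM in mutant EOM and 5.64 to 6.74 CPM in WT EOM. In trunk they summed to 12.8 to 17.7 CPM in mutants and 8.52 to 13.1 CPM in WT. Of these tnmd was called as higher in mutant trunk (0.74), a call lost in 4 of 6 fits with 1 library left out. Markers of bone and cartilage, 11 genes, summed to 16 to 19.9 CPM in mutant EOM and 16.5 to 28.7 CPM in WT EOM, and to 6.25 to 7.82 CPM in mutant trunk and 6.61 to 12 CPM in WT trunk. Endothelial markers, 7 genes, summed to 115 to 128 CPM in mutant EOM and 143 to 178 CPM in WT EOM. In trunk they summed to 283 to 311 CPM in mutants and 347 to 364 CPM in WT. Of these cdh5 was called as lower in mutants in both muscles (−0.66 in EOM and −0.54 in trunk). With 1 library left out its edgeR adjusted p was 0.0455 to 0.152 in EOM, under 0.05 only without WT replicate 2. In trunk it was 0.0221 to 0.146, under 0.05 only without WT replicate 3. Skeletal muscle fibre markers, 8 genes, summed to 34973 to 40457 CPM in mutant EOM and 40471 to 48413 CPM in WT EOM, and to 137665 to 177618 CPM in mutant trunk and 127930 to 158298 CPM in WT trunk. Of these smyhc1, a slow myosin gene, was called as lower in mutant trunk (−0.89). The tenocyte, endothelial and fibre sums were thus higher in trunk than in EOM. The leukocyte, fibroblast, and bone and cartilage sums were higher in EOM. In the fibre list 2 of the 8 genes were called as higher in EOM in each genotype. These were myhz2 (log2 fold change of EOM over trunk 5.74 in mutants and 5.96 in WT) and acta1b (2.81 and 3.43). As lower in EOM, 5 were called in mutants and 6 in WT. Photoreceptor markers, 10 genes, reached 67.7 to 192 CPM in mutant EOM and 41.7 to 390 CPM in WT EOM. In trunk they stayed under 1 CPM in mutants and were 63.4 CPM in WT replicate 1 and 3.14 and 1.43 CPM in the other WT libraries. Skin markers, 8 genes, ran from 398 to 446 CPM in mutant EOM and 215 to 509 CPM in WT EOM, and from 200 to 318 CPM in mutant trunk and 222 to 644 CPM in WT trunk. In trunk none of these 8 had a positive log2 fold change of mutant over WT, and the median was −1.28. None was called there (edgeR, smallest adjusted p 0.0832), but 3 were called as lower without WT trunk replicate 2. In EOM 3 of the 8 were positive, the median was −0.44 and none was called (edgeR, smallest adjusted p 0.206). Smooth muscle markers, 5 genes, ran from 145 to 169 CPM in mutant EOM and 136 to 179 CPM in WT EOM, and from 141 to 181 CPM in mutant trunk and 161 to 186 CPM in WT trunk. No read was found for fmodb and acanb in trunk of either genotype, for opn1sw2 and opn1lw1 in mutant trunk, and for tcf21 and scxb in WT trunk. The part of these cell types in the results was likewise not tested.

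**Figure D5:**
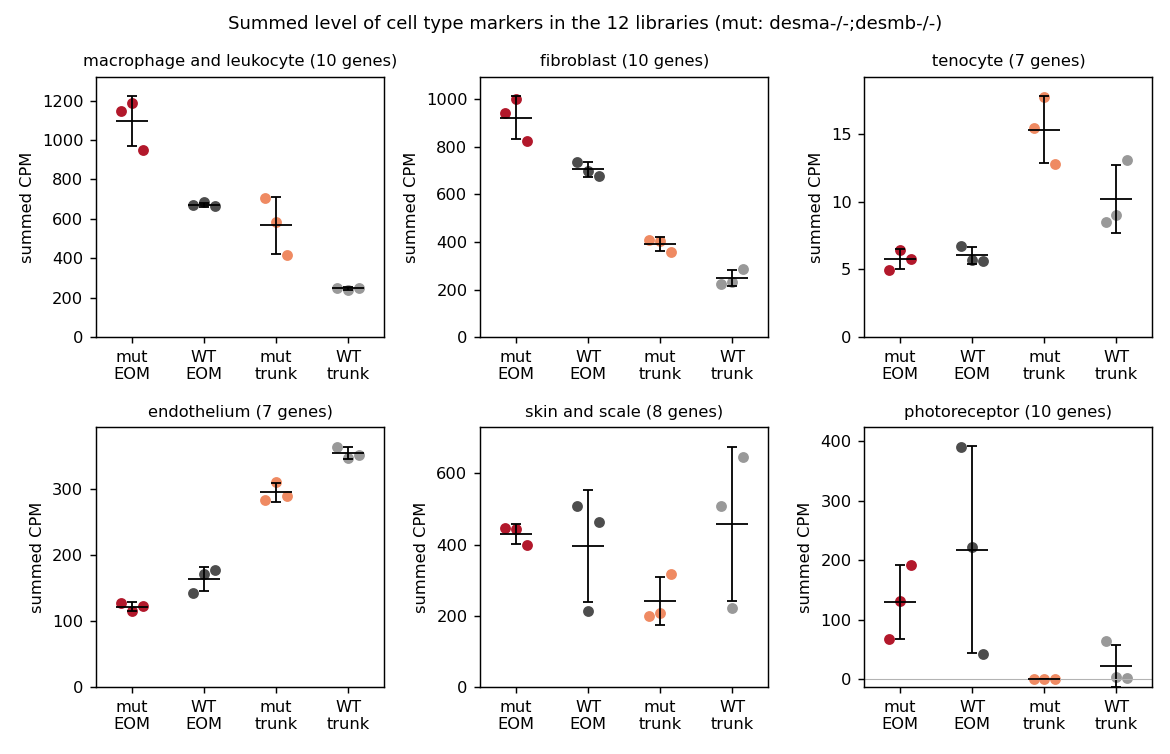
Summed CPM (y axes, linear) of marker genes of 6 cell types in the 3 libraries of each group (points), with mean and SD (bars); mut stands for desma-/-;desmb-/-. The leukocyte and fibroblast sums are higher in every mutant library than in every WT library of the same muscle, and the endothelial sums are lower.

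The 9 genes did not share 1 pattern. With each muscle's mean taken out, the 8 genes with at least 1 CPM on average formed 28 pairs, whose Pearson r over the 12 libraries ran from −0.286 (fn1b and postnb) to 0.899 (postna and loxl2b), with a median of 0.37. fn1a and fn1b had r = 0.778, and postna and postnb r = 0.219. Libraries of a group share a genotype and a tissue, so these values are a description with no p. Among 13815 genes, the closest to the mean profile of the 8 were coro1a (r = 0.972), one of the leukocyte markers above, fgl1 (0.965), pdzd11 (0.964), hspb1 (0.961) and lipa (0.961). These are the highest r of all genes compared, with the genotype difference left in the profiles. Values for the other markers are not given here, and a part of any cell type was not tested. Taken singly, the closest gene was csf3r for fn1a (r = 0.935), cnstb for fn1b (0.941), ms4a17a.1 for postna (0.962), calub for postnb (0.93), tram2 for sparc (0.968), gas7 for tnc (0.893) and itm2c for lox (0.921). For loxl2b it was ENSDARG00000112644.1 (r = 0.985), an ID for which the tables used give no symbol.

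The second tenascin C copy, tnca (ENSDARG00000078362.4), which is not among the 9, was at 19.7, 15.2 and 15.4 CPM in mutant EOM, against 11.6, 8.11 and 14 CPM in WT EOM. In trunk it was at 14.6, 19.1 and 14.1 CPM in mutants, against 13.2, 11.1 and 12.9 CPM in WT. The groups did not overlap in either muscle, unlike those of tnc, but neither log2 fold change passed (0.58 ± 0.20 and 0.38 ± 0.16; edgeR, adjusted p = 0.171 and 0.16).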

How the data were processed

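Per the labels' protocols, libraries were poly-A selected and stranded, and per the submitters' processing notes STAR and the build GRCz11 were used, with versions and annotation not given in the sources used here. The deposited values are raw read counts per gene from the authors. The sense count was the first single-strand column; the other strand held 2.77% to 3.21% of stranded reads. The 4 tallies of unassigned reads were left out. Reads that match several places or genes are in those tallies, so near-identical copies may be undercounted.

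Tests used edgeR 4.0.16 under R 4.3.3 (filterByExpr, TMM factors, robust quasi-likelihood), on the libraries of each comparison and on all 12 for the difference between muscles, and adjusted over all genes tested. TMM factors were computed anew in each fit. Those behind the CPM levels were computed over all 12 libraries and ran from 0.71 to 1.38. The SE is that implied by the F statistic. DESeq2 1.42.0, other scalings, no filter, either-strand counts, a replicate block, a fit of all 12 libraries and leaving out each library were alternatives. Only the edgeR fit was tried on simulated counts, for mutant against WT in each muscle and for their difference. Those counts had the same spread setting for all genes, and the other steps were not tried in this way. A level at or below 3 reads was taken as the floor.

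Symbols came from the ID table (29201 of 32520 IDs) and, for copies sharing a symbol, from neighbours within 10 IDs on each side and 2 Mb in RefSeq's GRCz12tu gene table. By rule, called genes of the 5 process lists are named for mutant against WT, and for the muscles those of largest change in WT, at most 6 per list; the muscles in mutants are given as counts, and called cell-type markers as counts with examples. Further, the genes most like the 9 were sought among those with a mean of at least 1 CPM, on log2(CPM + 1). Members and lists were chosen with earlier results of these data known. No sequence tables were used.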

Additional observations from a re-analysis of the deposited data

Results flagged for a closer look

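The 3 mutant libraries lay on opposite sides of the 3 WT libraries in the 2 muscles for 1 of the 9 genes, postnb: all were below in EOM and all above in trunk. Of all genes tested, 11.6% were below without overlap in EOM and 15% above in trunk. The share with both was not computed. Outside the 9, the low-count gene sparcl1 had the same pattern (log2 fold change −1.02 in EOM and 0.99 in trunk), while tnca was above in both muscles. Neither sparcl1 change passed (edgeR, adjusted p = 0.151 in EOM and 0.15 in trunk), nor did their difference (−1.98; edgeR, adjusted p = 0.213). For postnb the difference between the log2 fold changes, EOM minus trunk, was −1.32 ± 0.29 (SE). The test of that difference was not past the threshold in edgeR (adjusted p = 0.137, and 0.0601 to 0.367 with 1 library left out). It was past the threshold in DESeq2 (adjusted p = 0.00763, the lowest of all alternatives), which called 192 genes of any kind for the difference, against 18 in edgeR. The mutant effect was −0.72 in EOM and 0.61 in trunk on the log2 scale.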

How the results depend on the processing

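Over 630 recomputed log2 fold changes of the 9 genes, 583 kept direction and side of the threshold, 11 lost and 15 gained a call and 21 turned sign. These counts include genes not called in any setting. The calls of mutant against WT were less stable when 1 library was left out. That of fn1b in EOM was lost in 5 of 6 fits, that of loxl2b in trunk in 3 of 6 and that of postna in trunk in 1 of 6. The number of the 9 called in EOM was 0 to 1 when a library was left out and 2 with DESeq2; in trunk it was 0 to 4, and 0 without mutant replicate 1. In the fit without WT EOM replicate 3 the gene called was postnb, not fn1b. For the difference between muscles DESeq2 called 1. With a single library left out, log2 fold changes ran over −0.34 to 0.19 for lox, −0.23 to 0.04 for tnc and −0.21 to 0.26 for spp1 in EOM, −0.25 to 2.28 for spp1 in trunk, −0.18 to 0.09 for fn1a and −2.24 to 0.27 for spp1 in the difference, and −1.20 to 1.32 for spp1 between muscles in mutants (1.32, adjusted p = 0.0261, without mutant trunk replicate 1; edgeR). Unscaled totals turned tnc (0.02) and lox (0.05) in EOM, fn1a in the difference (0.08) and tnc between muscles in WT (0.24). The cause was not tested.

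Some same-numbered libraries deviated together and others did not (r over genes −0.328 to 0.451), in no pair of groups all 3, and the labels do not say whether EOM and trunk libraries share fish, so the numbers were not taken as a pairing. The replicate block gave 1 gene of the 9 in EOM, 2 in trunk and 0 for the difference, and turned spp1 in EOM (−0.0022). Of all genes, 675 were called in EOM, against 1468 with DESeq2, 1191 with the block and 127 to 648 without a library; 1456 in trunk, against 488 to 2043 without a library; and 18 for the difference, against 192 with DESeq2, 35 with no filter, 6 with the block and 5 to 19 without a library. With unscaled totals 73.7% of EOM calls were higher, against 60.6%, and between muscles 87.9% in mutants, against 51.6%, and 82.4% in WT, against 52.4%. Depth limits spp1, with 13 reads in its lowest library.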
